A study of Mus musculus with 12 samples.

Results

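The miR-183, miR-96 and miR-182 cluster was followed through small RNA sequencing of the prefrontal cortex (PFC) of C57BL/6 mice. Its members were the 3 mature miRNAs mmu-miR-183-5p, mmu-miR-96-5p and mmu-miR-182-5p, chosen by name from 1374 mature miRNAs that had at least 1 count. The study asked how L-methionine acts on cocaine-conditioned place preference (CPP), a behavioural measure of drug reward, and it had 4 groups of 3 libraries. SS mice received saline only, CS mice cocaine and saline, MS mice methionine and saline, and MC mice methionine and cocaine. Methionine was given under the skin at 1 g/kg, 2 times a day for 10 days, and the PFC was removed 2 h after the last CPP test, on day 10. Per the study's methods the animals were adult males and each library pooled RNA from 2 of them, so every group went through the CPP procedure and no value belongs to a single mouse. The methods call the 3 libraries of a group biological replicates. A p-value here rests on the spread within groups between libraries of 2 pooled mice, estimated over all groups together.

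The cluster is a group of neighbouring miRNA genes transcribed together in many sensory cells. It is best known from photoreceptors, hair cells of the inner ear and sensory neurons, and changes in the seed of miR-96 cause progressive hearing loss in humans and mice. A miRNA recognises its targets mainly through its seed, here bases 2 to 8 from the 5′ end. The mature sequences are shown because the members differ from one another in the seed. They were taken from RefSeq (GRCm38.p6) and are written 5′ to 3′ with the seed in capitals.
mmu-miR-183-5p: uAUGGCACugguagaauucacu
mmu-miR-96-5p: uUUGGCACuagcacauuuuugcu
mmu-miR-182-5p: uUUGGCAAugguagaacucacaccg
miR-96-5p and miR-182-5p had the same bases 2 to 7 and differed at base 8 (A8C, miR-182-5p first, positions counted from the 5′ end). miR-183-5p differed from both at base 2 (A2U, miR-183-5p first). Over the whole length the closest pair was another one, since miR-183-5p and miR-182-5p had the same base at 18 of 22 positions, whereas miR-183-5p and miR-96-5p shared 13 of 22, and miR-182-5p and miR-96-5p 12 of 23. Of the 1374 mature miRNAs, 1160 had a RefSeq sequence, and 0 of those outside the cluster had the bases 2 to 7 of a member.

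All 3 hairpins lie on the minus strand of chromosome 6, at chr6:30169668-30169737 (Mir183), chr6:30169446-30169551 (Mir96) and chr6:30165918-30165992 (Mir182) of GRCm38. Mir183 and Mir96 are 116 bp apart, and Mir182 follows 3453 bp further on. The mature 5p arms are at chr6:30169711-30169732 for miR-183-5p, chr6:30169506-30169528 for miR-96-5p and chr6:30165962-30165986 for miR-182-5p. In the GENCODE M21 annotation no exon of another gene overlaps a hairpin, and the locus is intergenic, between the protein-coding genes Nrf1 and Ube2h.

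The libraries held 7.77 to 11.1 M counts each (M, 1000000), of which miRNAs made up 56.1% to 67.9%. Levels are given as CPM, the reads of a miRNA for every 1000000 counted in its library. Intervals and floors below cover counting error only, and a count of 0 allows up to 0.271 to 0.386 CPM. The neuronal miRNAs miR-124-3p, miR-9-5p, miR-128-3p and miR-138-5p together reached 102636 to 269550 CPM, so the defining markers of neural tissue were abundant in all 12 libraries. The libraries were also divided into 3 sets by clustering their reads on miRNA precursors, with the number of sets fixed at 3. The labels name none of these sets as a batch. Set A held SS replicate 12, CS replicate 8 and CS replicate 9. Set C held CS replicate 10, MC replicate 16 and MC replicate 17. The other 6 libraries formed set B. All 3 MS libraries were thus in 1 set, no set held all 4 groups, and the sets cannot be fully told apart from treatment. Set B held the deeper libraries, with 10.0 to 11.1 M counts against 7.77 to 8.71 M in sets A and C. Every MS library was therefore deeper than every CS library. The main tests held no term for set, so the spread within a group can also hold differences between sets. In bulk tissue a lower share of cells that make a miRNA and less of it per cell cannot be told apart.

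The cluster was expressed at a moderate to low level in the PFC. Levels here cover reads counted as mature only, and reads on the precursor families, counted apart, are given below. By mature reads, miR-183-5p was the most abundant member, with a mean of 29.9 CPM over the 12 libraries. It had rank 257 of the 1374 mature miRNAs, between let-7i-3p and miR-377-3p. miR-182-5p had a mean of 16.3 CPM (rank 312, between miR-455-3p and miR-664-5p), and miR-96-5p one of 6.96 CPM (rank 373, between miR-1264-5p and miR-6958-3p). miR-183-5p exceeded miR-182-5p in 12 of 12 libraries, and miR-182-5p exceeded miR-96-5p in 11 of 12, the exception being MC replicate 17. What set the members apart more than their level was their spread between libraries. The standard deviation of log2(CPM + 0.5) was 1.29 for miR-183-5p, 1.16 for miR-182-5p and 1.24 for miR-96-5p, against a median of 0.52 over the 780 miRNAs tested, which placed them 32nd, 44th and 35th.

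Cluster levels were close together in SS, and highest in 1 library each of CS and MS. miR-183-5p measured 13.5, 12.2 and 8.03 CPM in SS replicates 12, 13 and 14, and 17.3, 27.6 and 129 CPM in CS replicates 8, 9 and 10. It measured 73.9, 6.19 and 31.5 CPM in MS replicates 3, 4 and 23, and 7.34, 15.0 and 16.9 CPM in MC replicates 16, 17 and 20. The highest value, CS replicate 10 (1058 counts, 95% exact interval 122 to 137 CPM), was 20.9 times the lowest, MS replicate 4. Within SS the highest library was 1.68 times the lowest, against 7.45 times within CS, 11.9 times within MS and 2.31 times within MC. Group means were 11.2 ± 2.84 CPM for SS, 58.1 ± 61.9 CPM for CS, 37.2 ± 34.2 CPM for MS and 13.1 ± 5.09 CPM for MC (SD, n = 3).

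miR-182-5p, which shares most bases with miR-183-5p, had the same high libraries. It measured 10.9, 8.47 and 6.41 CPM in SS replicates 12, 13 and 14, and 11.6, 17.0 and 69.7 CPM in CS replicates 8, 9 and 10. MS replicates 3, 4 and 23 held 31.9, 3.90 and 15.9 CPM, and MC replicates 16, 17 and 20 held 4.38, 5.14 and 10.4 CPM. Again CS replicate 10 was highest and MS replicate 4 lowest, 17.9 times apart. The means were 8.60 ± 2.27 CPM for SS, 32.7 ± 32.1 CPM for CS, 17.2 ± 14.1 CPM for MS and 6.62 ± 3.25 CPM for MC (SD, n = 3).

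miR-96-5p, the member with the hearing loss mutations, was the scarcest by mature reads. SS replicates 12, 13 and 14 held 3.77, 4.38 and 2.71 CPM, and CS replicates 8, 9 and 10 held 1.89, 5.05 and 20.2 CPM. It measured 22.9, 2.20 and 8.18 CPM in MS replicates 3, 4 and 23, and 0.644, 6.02 and 5.59 CPM in MC replicates 16, 17 and 20. Its highest library was MS replicate 3 rather than CS replicate 10, and its lowest, MC replicate 16, rested on 5 counts (95% exact interval 0.209 to 1.50 CPM). Means were 3.62 ± 0.847 CPM for SS, 9.04 ± 9.77 CPM for CS, 11.1 ± 10.6 CPM for MS and 4.08 ± 2.99 CPM for MC (SD, n = 3). In the order of the group means, CS, MS, MC, SS for miR-183-5p, CS, MS, SS, MC for miR-182-5p and MS, CS, MC, SS for miR-96-5p, the libraries of every pair of neighbouring groups overlapped.

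**Figure D1:**
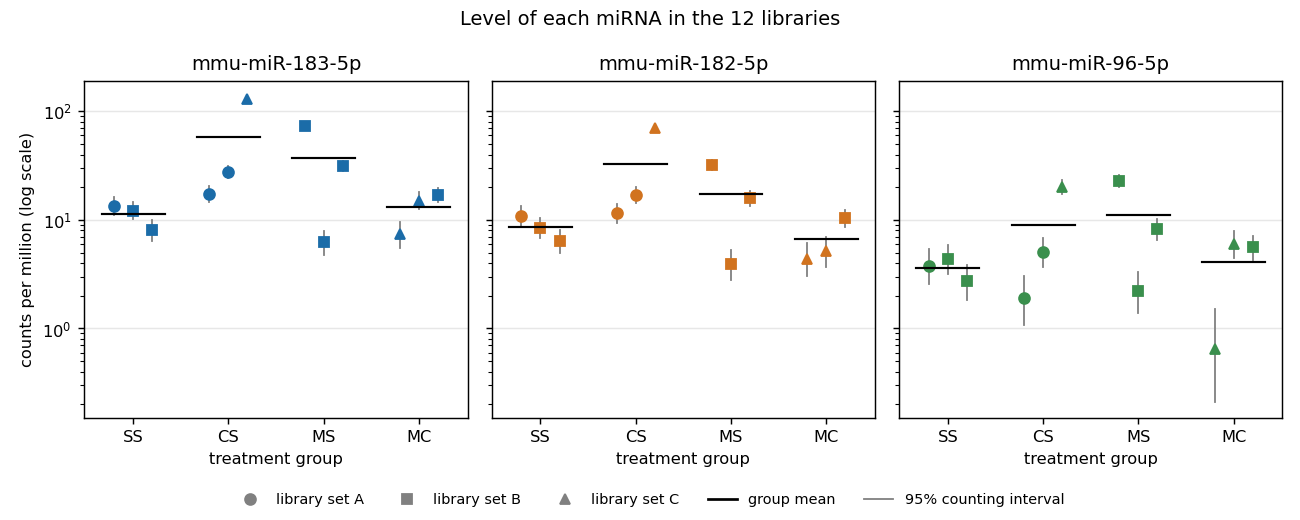
CPM (log axis) of miR-183-5p, miR-182-5p and miR-96-5p in the 12 libraries, by treatment group. Points are libraries with their 95% exact counting interval, marker shapes give the library set, and black lines are group means. The SS libraries lie close together, while CS replicate 10 and MS replicate 3 stand far above the other libraries of their groups.

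The comparison of CS with SS asks what cocaine did without methionine. All 3 members had higher fitted levels in CS, but none passed the test. The log2 fold change was 2.23 ± 0.91 (SE) for miR-183-5p (95% interval 0.23 to 4.23), 1.78 ± 0.83 for miR-182-5p (−0.03 to 3.59) and 1.17 ± 0.98 for miR-96-5p (−0.98 to 3.33). Each had an adjusted p of 0.994 by edgeR (quasi-likelihood test, Benjamini-Hochberg method over 780 miRNAs), and only miR-183-5p was among those with an unadjusted p under 0.05. Of all 780 miRNAs tested 0% were called (adjusted p of at most 0.05 and a log2 fold change of at least 1 in size), with 22 at an unadjusted p under 0.05 and 0 calls and 29 such p-values by DESeq2. In CPM, the 3 CS libraries were all above the 3 SS libraries for 2 of the 3 members, miR-183-5p and miR-182-5p, as they were for 12.3% of all miRNAs tested. With CPM scaled by TMM factors, which correct for the make-up of a library, 0 of 3 members were separated, against 5% of all. The difference rested largely on CS replicate 10. Without it, the log2 fold change was 0.63 for miR-183-5p, 0.36 for miR-182-5p and −0.40 for miR-96-5p. Within set A, CS replicates 8 and 9 held 17.3 and 27.6 CPM of miR-183-5p beside 13.5 CPM in SS replicate 12, and 1.89 and 5.05 CPM of miR-96-5p beside 3.77 CPM.

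MS was compared with SS for methionine alone. The fitted levels were again higher and again not past the test, with log2 fold changes of 1.53 ± 0.89 for miR-183-5p (SE; adjusted p = 0.621 by edgeR), 1.41 ± 0.98 for miR-96-5p (adjusted p = 0.698) and 0.80 ± 0.81 for miR-182-5p (adjusted p = 0.802). MS replicate 4 lay below all 3 SS libraries for each member, whereas MS replicates 3 and 23 lay above them, so 0 of 3 members were separated in CPM, where 18.7% of all miRNAs tested were higher in MS without overlap. No miRNA of the 780 was called by edgeR (0%), 75 had an unadjusted p under 0.05, and DESeq2 called 9, none of them a member. Without MS replicate 3 the log2 fold changes were 0.55 for miR-183-5p, 0.31 for miR-96-5p and 0.0029 for miR-182-5p. The 5 libraries of these groups in set B held 8.03 and 12.2 CPM of miR-183-5p in SS and 6.19 to 73.9 CPM in MS.

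MC was compared with CS for methionine on a background of cocaine, and here the fitted levels were lower. The log2 fold change was −2.22 ± 0.91 for miR-183-5p (SE; adjusted p = 0.577 by edgeR), −2.33 ± 0.85 for miR-182-5p (adjusted p = 0.577) and −1.31 ± 0.98 for miR-96-5p (adjusted p = 0.641). The 95% intervals were −4.21 to −0.22, −4.18 to −0.48 and −3.47 to 0.84. None was called, as in 0% of all miRNAs, where 58 had an unadjusted p under 0.05 (70 by DESeq2, which called 0). In CPM, all 3 MC libraries lay below all 3 CS libraries for miR-183-5p and miR-182-5p, 2 of 3 members, against 2.05% of all miRNAs tested. The gap was narrow, from 16.9 to 17.3 CPM for miR-183-5p and from 10.4 to 11.6 CPM for miR-182-5p, and with TMM scaling 1 of 3 members, miR-182-5p, remained separated against 4.36% of all. Without CS replicate 10 the values were −0.64 for miR-183-5p, −0.93 for miR-182-5p and 0.24 for miR-96-5p. In set C, CS replicate 10 with 129 CPM of miR-183-5p stood beside MC replicates 16 and 17 with 7.34 and 15.0 CPM. Both this comparison and that of CS with SS used the same CS libraries.

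Cocaine on a background of methionine, MC against MS, gave log2 fold changes of −1.52 ± 0.89 for miR-183-5p (SE; adjusted p = 0.626 by edgeR), −1.55 ± 0.98 for miR-96-5p (adjusted p = 0.656) and −1.36 ± 0.82 for miR-182-5p (adjusted p = 0.644). The groups overlapped for all 3 members (0 of 3 separated, against 2.69% of all miRNAs tested that were lower in MC without overlap). MS replicate 4 was below all 3 MC libraries for miR-183-5p and miR-182-5p. The call rate was 0% of all miRNAs, with 65 at an unadjusted p under 0.05 (78 by DESeq2, which called 0). Without MS replicate 3 the values were −0.54, −0.45 and −0.55 for miR-183-5p, miR-96-5p and miR-182-5p. In set B, MC replicate 20 held 16.9 CPM of miR-183-5p, inside the MS range.

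The interaction, the change with cocaine under methionine minus the change with cocaine alone, was −3.74 ± 1.27 for miR-183-5p on the log2 scale (SE; 95% interval −6.54 to −0.95), −3.14 ± 1.17 for miR-182-5p (−5.69 to −0.58) and −2.72 ± 1.39 for miR-96-5p (−5.77 to 0.32). Each had an adjusted p of 0.804 by edgeR, so none was called, and 0% of all miRNAs were (34 at an unadjusted p under 0.05, 43 by DESeq2, which called 0). With CS replicate 10 and MS replicate 3 both left out, an alternative chosen after seeing the data, it was −1.21 for miR-183-5p, −0.95 for miR-182-5p and −0.08 for miR-96-5p. In the test among the 4 groups the adjusted p was 0.593 for miR-183-5p and miR-182-5p and 0.696 for miR-96-5p. Treatment groups held 35.6%, 40.1% and 16.9% of the variance of log2(CPM + 0.5) of miR-183-5p, miR-182-5p and miR-96-5p, beside a median of 25.8% over the miRNAs tested.

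**Figure D2:**
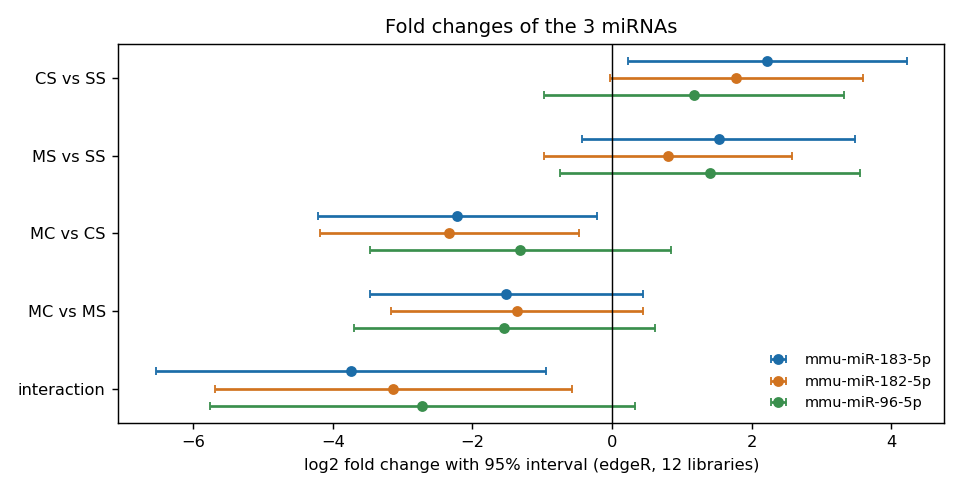
Log2 fold changes of the 3 miRNAs in the 4 comparisons and the interaction, with 95% intervals derived from edgeR's F statistics in the fit of all 12 libraries. Estimates are above 0 against SS and below 0 for MC against CS and MS, with wide intervals, and none passed the adjusted test.

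The members varied together from library to library. Over the 12 libraries, Pearson's r of log2(CPM + 0.5) was 0.966 between miR-183-5p and miR-182-5p (Spearman's rho 0.937), 0.886 between miR-183-5p and miR-96-5p (rho 0.783), and 0.821 between miR-182-5p and miR-96-5p (rho 0.657). These are descriptions over libraries that share treatment and set. miR-183-5p and miR-182-5p were each other's highest correlation among 779 other miRNAs, and miR-96-5p came 5th for both. With the group means subtracted r was 0.978, 0.937 and 0.884, in the same order, and with the set means subtracted 0.976, 0.931 and 0.877, so the pairing was also present within groups and within sets. Without CS replicate 10 and MS replicate 3 it was lower, at 0.892, 0.717 and 0.572.

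A ratio between members of 1 library does not depend on how that library is scaled. There were 1.70 counts of miR-183-5p for each of miR-182-5p (geometric mean, range 1.23 to 2.93), 4.18 for each of miR-96-5p (2.5 to 11.4), and 2.46 of miR-182-5p for each of miR-96-5p (0.854 to 6.80). The ratio of miR-183-5p to miR-182-5p was 1.23, 1.44 and 1.25 in SS replicates 12, 13 and 14, and between 1.5 and 2.93 in the other 9 libraries. All 3 SS libraries were therefore below all others, but their 95% exact counting intervals reached 1.65, 1.92 and 1.74, inside the range of the others. MC replicate 17 had the highest ratio (2.93, 95% exact interval 2.04 to 4.28), with 120 and 41 counts. Ratios to miR-96-5p were highest in MC replicate 16 and CS replicate 8, where miR-96-5p had 5 and 16 counts. They did not separate SS from the other groups, and the share of other miRNA pairs that would do so was not computed.

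The miRNAs whose profile over the 12 libraries was most like the mean of the cluster were all from the miR-200 family, which is known for keeping cells epithelial by repressing the Zeb factors. Of 742 other mature miRNAs, the 5 with the highest r were miR-429-3p (0.965), miR-200a-3p (0.925), miR-141-3p (0.904), miR-200b-3p (0.887) and miR-200a-5p (0.815), while the 6th, miR-200b-5p, had 0.735 and the median was 0.01. Their sequences are shown because they fall into seed groups that none of the cluster members shares (RefSeq, 5′ to 3′, bases 2 to 8 in capitals).
mmu-miR-429-3p: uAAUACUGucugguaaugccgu
mmu-miR-200b-3p: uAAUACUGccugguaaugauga
mmu-miR-200a-3p: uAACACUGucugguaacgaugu
mmu-miR-141-3p: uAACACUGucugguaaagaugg
mmu-miR-200a-5p: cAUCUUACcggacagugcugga
miR-429-3p and miR-200b-3p have 1 seed, miR-200a-3p and miR-141-3p another. They also come from other loci, miR-429-3p at chr4:156053916-156053937, miR-200a-3p at chr4:156054911-156054932, miR-200b-3p at chr4:156055685-156055706 and miR-141-3p at chr6:124717917-124717938, all on the minus strand of GRCm38.

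Like the cluster, miR-429-3p was even in SS, at 54.4, 61.7 and 67.0 CPM, and highest in CS replicate 10 (459 CPM) and MS replicate 3 (344 CPM). The other libraries held 29.9 to 131 CPM. miR-200a-3p measured 25.9 to 38.2 CPM in SS and reached 196 CPM in CS replicate 10 and 181 CPM in MS replicate 3. miR-141-3p went from 6.57 to 10.1 CPM in SS to 132 CPM in CS replicate 10. miR-200a-5p was near the floor, at 0.271 to 0.608 CPM in SS and 0.257 to 4.64 CPM over all libraries, so its values rest on few counts. In MC replicate 20 the 5 miRNAs differed among themselves. There miR-200b-3p had 85.4 CPM against 14.2 to 18.2 CPM in SS, whereas miR-429-3p had 67.7 CPM, close to its 54.4 to 67.0 CPM in SS, and miR-183-5p had 16.9 CPM against 8.03 to 13.5 CPM. None of the 5 was called by edgeR in any comparison. In CS against SS their log2 fold changes ran from 1.52 ± 0.84 (SE) for miR-200a-3p to 2.66 ± 1.07 for miR-141-3p (adjusted p = 0.994 for each), and in MS against SS from 1.32 ± 0.83 for miR-429-3p to 2.50 ± 1.07 for miR-141-3p. In MC against CS they ran from −1.83 ± 0.84 for miR-429-3p to −0.62 ± 1.00 for miR-200a-5p, beside −2.22 for miR-183-5p and −2.33 for miR-182-5p, and in MC against MS from −1.53 ± 0.84 for miR-429-3p to −0.11 ± 1.01 for miR-200a-5p. Differences between these miRNAs and the cluster were not tested. The same 5 miRNAs led with Spearman's correlation, TMM-scaled CPM, a pseudocount of 1 and set means subtracted, 4 of them with group means subtracted and without CS replicate 10, and 2 of them without CS replicate 10 and MS replicate 3, where the r of the 5 was 0.442 to 0.872.

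**Figure D3:**
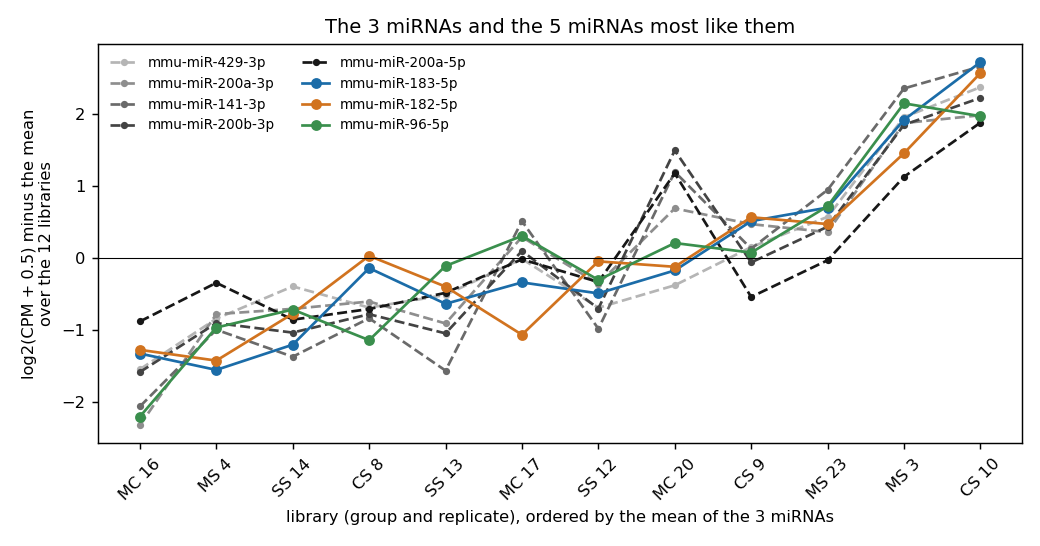
Log2(CPM + 0.5) minus its mean over the 12 libraries for the 3 cluster miRNAs (solid) and the 5 miRNAs most like them (dashed), with libraries ordered by the mean of the cluster. All 8 lines are highest in CS replicate 10 and MS replicate 3 or, for miR-200a-5p, CS replicate 10 and MC replicate 20.

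**Figure D4:**
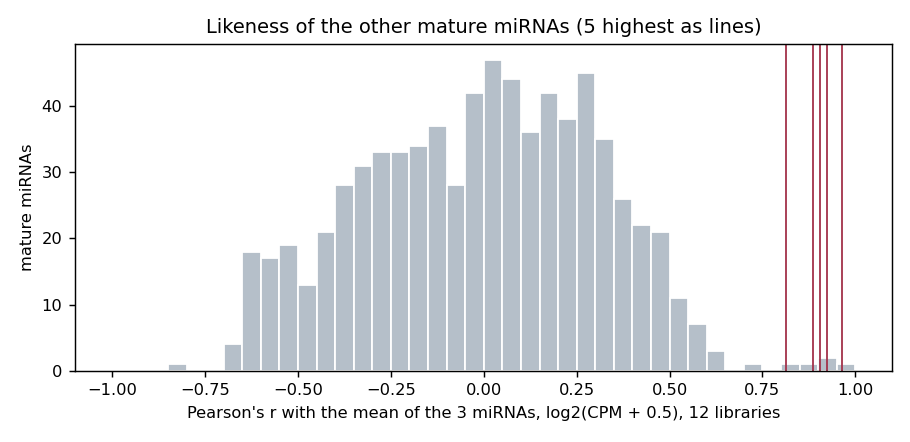
Histogram of Pearson's r between each of 742 other mature miRNAs and the mean of the cluster over the 12 libraries. Lines mark the 5 highest, from 0.815 to 0.965, which stand apart from the bulk around a median of 0.01.

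Of the 5 most similar miRNAs, 4 belong to a list of 7 epithelial miRNAs. Of its other 3 members, only miR-200c-3p had an r above 0.1 with the cluster (0.594), while miR-203-3p had 0.0989 and miR-205-5p −0.0818; miR-200c-3p and miR-205-5p are named after their values were seen. The summed level of the list was 147 to 171 CPM for SS, 275 to 1044 CPM for CS, 184 to 837 CPM for MS and 83.3 to 482 CPM for MC, and the r of the summed list with the cluster was 0.893, a sum that holds the 4 miRNAs already picked for their likeness. All 7 were detected and tested, and none was at 0 in any library. In CS against SS, 7 of 7 had a positive log2 fold change with a median of 1.88 (0.03 over all miRNAs), and 0 were called by edgeR. An unadjusted p under 0.05 by edgeR was found for 4 of the 7, beside 22 of all 780 miRNAs tested, in either direction. These 4 were miR-141-3p, miR-200c-3p, miR-203-3p and miR-205-5p, of which only miR-141-3p was highest in CS replicate 10. miR-200c-3p was highest in MC replicate 20, at 126 CPM against 58.2 CPM in CS replicate 10. The last 2 were highest in CS replicate 8, at 209 CPM for miR-203-3p and 20.2 CPM for miR-205-5p, where miR-183-5p was 17.3 CPM. In MS against SS the median was 1.34 (−0.03 over all), with 2 at an unadjusted p under 0.05 (75 of 780 over all, in either direction) and 0 called. In MC against CS, 1 of 7 had a positive log2 fold change, the median was −1.17 (0.08 over all) and 0 were called. At an unadjusted p under 0.05, 1 (miR-205-5p) was lower, beside 58 of 780 over all, in either direction. The part of epithelial cells in the levels of the cluster was not tested.

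Markers of other cell types followed the cluster less closely in value. Over the 12 libraries the r of the summed list with the cluster was 0.332 for choroid plexus, 0.530 for red blood cells, 0.141 for leukocytes and microglia, 0.364 for endothelium, 0.172 for oligodendrocytes, 0.665 for neurons, −0.409 for muscle, 0.060 for pineal and pituitary and 0.154 for hindbrain. The neuron list was not uniform. Its most abundant miRNA by mean, miR-124-3p, had an r of 0.600, but miR-9-5p had 0.260, miR-128-3p 0.011 and miR-138-5p −0.338. The levels of other miRNAs known from sensory organs and the pineal gland had a summed r of 0.666, a list dominated by the brain miRNA miR-124-3p (30002 to 176336 CPM, r = 0.600). The r of the rest was 0.328 for miR-204-5p, 0.317 for miR-211-5p, 0.260 for miR-9-5p, 0.0717 for miR-7a-5p, −0.214 for miR-375-3p and −0.360 for miR-184-3p. Of these 7 miRNAs, 0 were called in the 4 comparisons of groups by edgeR. At an unadjusted p under 0.05, 1 was lower in CS than in SS and 2 were lower in MS than in SS, while in MC 1 was higher and 1 lower than in CS and 1 was higher than in MS. Over all 780 miRNAs tested, 22 had such a p in CS against SS and 75 in MS against SS. The counts were 58 in MC against CS and 65 in MC against MS, each in either direction.

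Among reads counted as a mature arm, the 5p arm held nearly all of those of miR-183 and miR-182. miR-183-3p was listed in 11 of 12 libraries with 0 to 16 counts, 71 in all beside 3329 of miR-183-5p, or 2.09% of both arms (95% exact interval 1.63% to 2.63%). miR-182-3p was listed in 6 libraries with 8 counts in all beside 1804 of miR-182-5p, or 0.442% (0.191% to 0.868%). miR-96-3p was not listed.

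The files also count reads by precursor family, apart from the mature miRNAs. For the mir-96 family there were 3.49 such reads for each miR-96-5p read, for mir-182 1.09 and for mir-183 0.0814. In all, the families held 2801 reads for mir-96, 1967 for mir-182 and 271 for mir-183. The mature 5p reads were 802, 1804 and 3329, in the same order. The ranking of the members and the ratios between them above leave the family reads out, so they hold for mature reads only. The mir-96 family followed its mature miRNA closely (r = 0.943 over the 12 libraries). It had 7.17 to 10.2 CPM in SS, 86.2 CPM in CS replicate 10, 89.0 CPM in MS replicate 3 and a count of 0 in MC replicate 16. The mir-182 family ran from 1.54 CPM in MC replicate 16 to 78.2 CPM in CS replicate 10, with an r of 0.858. The mir-183 family did not follow as closely (r = 0.449): MS replicate 3 had 13.9 CPM, but CS replicate 10, the highest library of miR-183-5p, had 0.611 CPM. The number of mir-183 family reads for each mature read was 0.0656 to 0.226 in set B, 0.0208 to 0.0408 in set A and 0 to 0.0167 in set C. These ranges did not overlap, and the sets were themselves defined from the precursor families other than those of the cluster.

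**Figure D5:**
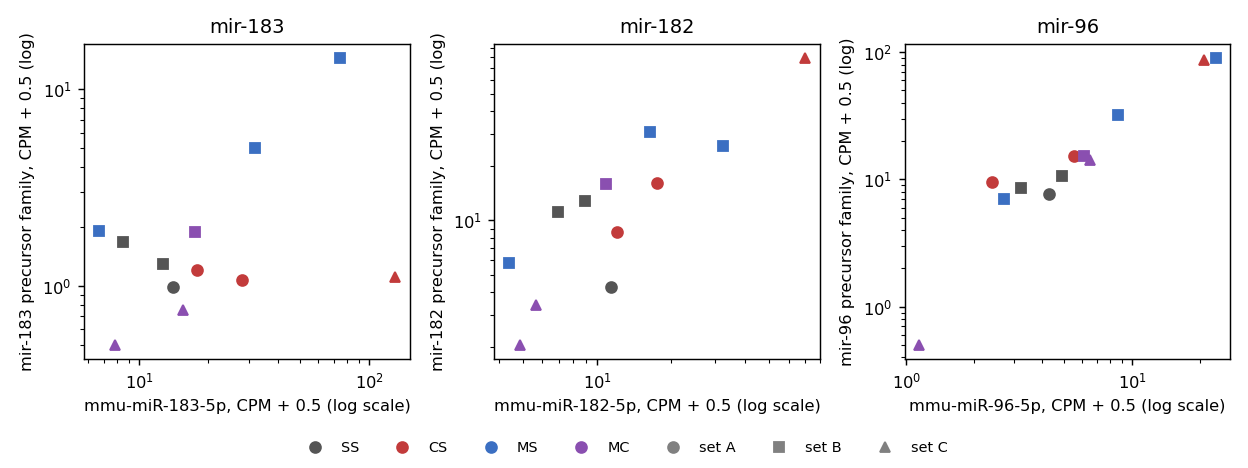
Reads on each precursor family against the mature 5p miRNA, both as CPM + 0.5 on log axes, in the 12 libraries, with colour for treatment group and marker shape for library set. The mir-96 family rises with miR-96-5p, whereas for mir-183 the set C library with the most mature reads (129 CPM) has few family reads (0.611 CPM).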

How the data were processed

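RNA of 18 to 30 nt was sequenced as 50 nt single-end reads on the BGISEQ-500. Per the study's methods, low-quality, adapter and short reads were removed and reads were mapped with AASRA. The submitters' processing notes name Bowtie and mm10; how miRNAs were annotated is not given in the sources used here. The deposited counts are reads per small RNA without normalization. The deposited TPM is the count over the library total times 1000000, and no length enters it; it was used only to check the counts (12 of 12 libraries, within 0.005).

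Counts of 780 miRNAs (at least 5 counts in at least 3 libraries, of 1422 with a count) were fitted with edgeR 4.0.16 in R 4.3.3, by the quasi-likelihood F-test with TMM factors from miRNAs, the library total as library size and 1 coefficient per group, and p-values were adjusted by the Benjamini-Hochberg method over all 780. Calls needed an adjusted p no higher than 0.05 and a log2 fold change no smaller than 1 in size, with no fold limit for the interaction and the 4-group test. On simulated data for CS against SS, 64.1% of 192 miRNAs changed 4-fold and 91.2% of 194 changed 16-fold were recovered, with 3 and 8 false calls. These rates are averages over randomly drawn miRNAs, many of them changed at once. The cluster members spread more between libraries than most miRNAs, so the rates do not carry over to them. Named besides the cluster were the other arms, the most abundant miRNAs of each list, and the 5 mature miRNAs with the highest Pearson's r with the cluster's mean log2(CPM + 0.5). Library sets came from average-linkage clustering of the libraries on 201 precursor families, cut into a fixed number of 3 sets. No 2 libraries were duplicates (smallest chi-square per degree of freedom 155 over 66 pairs). Alternatives were DESeq2 1.42.0, other scalings, filters and libraries. Python 3.11.15 was used otherwise, with GENCODE M21 and RefSeq for annotation. The members and lists were chosen with earlier results of these data known.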

Additional observations from a re-analysis of the deposited data

Results flagged for a closer look

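Reads on the precursor families, which enter no test of the report, exceeded the level of the SS libraries in at least 1 treated library for each hairpin. The mir-183 family reached 13.9 CPM in MS replicate 3, where the highest SS library had 1.17 CPM. In the same library the mir-96 family reached 89.0 CPM, against at most 10.2 CPM in SS. The mir-182 family was highest in CS replicate 10, at 78.2 CPM, against at most 12.4 CPM in SS. More of the libraries were treated than SS, so the highest library of a family is more often a treated one whatever the treatment does. How many other precursor families also peaked above SS was not computed. Differences of these families between groups were not tested.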

How the results depend on the processing

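No member was called in any comparison under any of the alternatives. Leaving out CS replicate 10 turned miR-96-5p to −0.40 in CS against SS and to 0.24 in MC against CS, and leaving out CS replicate 10 and MS replicate 3 together, an alternative chosen after seeing the data, gave −0.37 and 0.23. Apart from these, the members kept their direction in the comparisons of groups. Over the libraries left out in turn, the log2 fold change of miR-183-5p was 0.63 to 2.70 in CS against SS, 0.55 to 2.04 in MS against SS, −2.68 to −0.64 in MC against CS and −2.03 to −0.54 in MC against MS, that of miR-182-5p was 0.36 to 2.23, 0.0029 to 1.29, −2.78 to −0.93 and −1.84 to −0.55, and that of miR-96-5p −0.40 to 1.68, 0.31 to 1.91, −1.82 to 0.24 and −2.05 to −0.45. The count of called miRNAs, 0 in all 6 tests, was 9 by DESeq2 and 3 with the compared libraries alone for MS against SS, 1 for MC against CS without both libraries, and, among the 4 groups, 12 by DESeq2, 0 to 3 without 1 library (3 without MC replicate 16) and 1 without both libraries; the cause was not tested. DESeq2 gave no adjusted p for 249 of 780 miRNAs in MS against SS and 128 among the 4 groups. With library set as a covariate, the log2 fold change of miR-183-5p was 1.58 in CS against SS, weaker than in the main fit. Its unadjusted p by edgeR was 0.143, beside 0.032 in the main fit. That of miR-96-5p was 0.78 in the same comparison, beside 1.17. The log2 fold change of miR-183-5p was −2.40 in MC against CS and −2.00 in MC against MS, both stronger, as were those of miR-182-5p and miR-96-5p. Among the 4 groups the adjusted p by edgeR was 0.998 for each member with this covariate. Total counts without TMM factors shifted the median of all miRNAs by 0.27 in CS against SS, 0.25 in MS against SS and −0.33 in the interaction, and the members' directions held. No paired analysis was possible because the groups share no replicate numbers. At these depths the lowest miR-96-5p value rests on 5 counts.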
